A study of Homo sapiens with 4 samples.

Results

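The peaks described here lie in the second or a later intron of a transcript and come from a list of RNA regions enriched by YTHDF2 immunoprecipitation. The cells were HCCLM3, a highly metastatic line derived from a human hepatocellular carcinoma. They were taken by their annotation alone, as every peak on chromosomes 1 to 22 or X that the authors' annotation places in intron 2 or later, and they number 2300 of the 14858 peaks. In RIP-seq, short for RNA immunoprecipitation and sequencing, RNA that comes down with a protein's antibody is sequenced beside the input RNA. The labels give 4 libraries of wild-type cells with no treatment named, 2 of YTHDF2 RIP and 2 of input, and no control pulldown. The processed data are 1 list over all libraries, without a value per library, so no spread between replicates and no sequencing depth can be given.

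YTHDF2 is a cytosolic reader of N6-methyladenosine (m6A), a methyl mark on RNA, and recruits the CCR4-NOT deadenylase to marked transcripts. Introns are normally removed in the nucleus before an mRNA reaches the cytosol. Intron sequence can still occur in RNA through retained introns, unspliced precursors, exons missing from an annotation, or genes nested inside an intron. Among nested genes are processed pseudogenes, copies of spliced mRNAs that were reverse transcribed and inserted elsewhere in the genome. Highly expressed genes such as those of ribosomal proteins have many such copies, and reads from a copy and from its source gene can be close to identical.

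Most later intron peaks rested on very few fragments. RIP fragments at the summit of a peak, recovered from the authors' fold enrichment and p-value, had a median of 3 and quartiles of 3 and 4, over a median background of 0.68 fragments. Of the 2300 peaks, 310 had 2 fragments, 1063 had 3 and 383 had 4, so that 76.3% had 4 or fewer. As many as 562 shared the same fold, 2.61, which is what 3 fragments give over the lowest background of the list (0.533), and their −log10 q was 0.166. The minimum width of 315 bp was held by 1336 peaks (58.1%).

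A peak is said to have passed when its q, the caller's p adjusted over the list, was 0.01 or less. Of the later intron peaks, 171 (7.43%, 95% Clopper-Pearson interval 6.40 to 8.58) passed, where 37.2% of the 14504 peaks on the same chromosomes did. First introns gave a share of 6.53% (56 of 857, interval 4.97 to 8.40), which overlaps that of later introns, while exons gave 45.5% and the 3' UTR 51.1%. Distal intergenic sequence, with a median of 4 fragments, stood at 17.3%. These intervals cover counting error over peaks only, with each peak taken as independent, and no spread between libraries. PCR copies among the fragments were not told apart by molecular identifiers. No difference between classes was tested, because peaks are not replicates of the experiment. The median fold was 2.61 in both intron classes, 2.46 in exons and 2.12 in the 3' UTR.

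**Figure D1:**
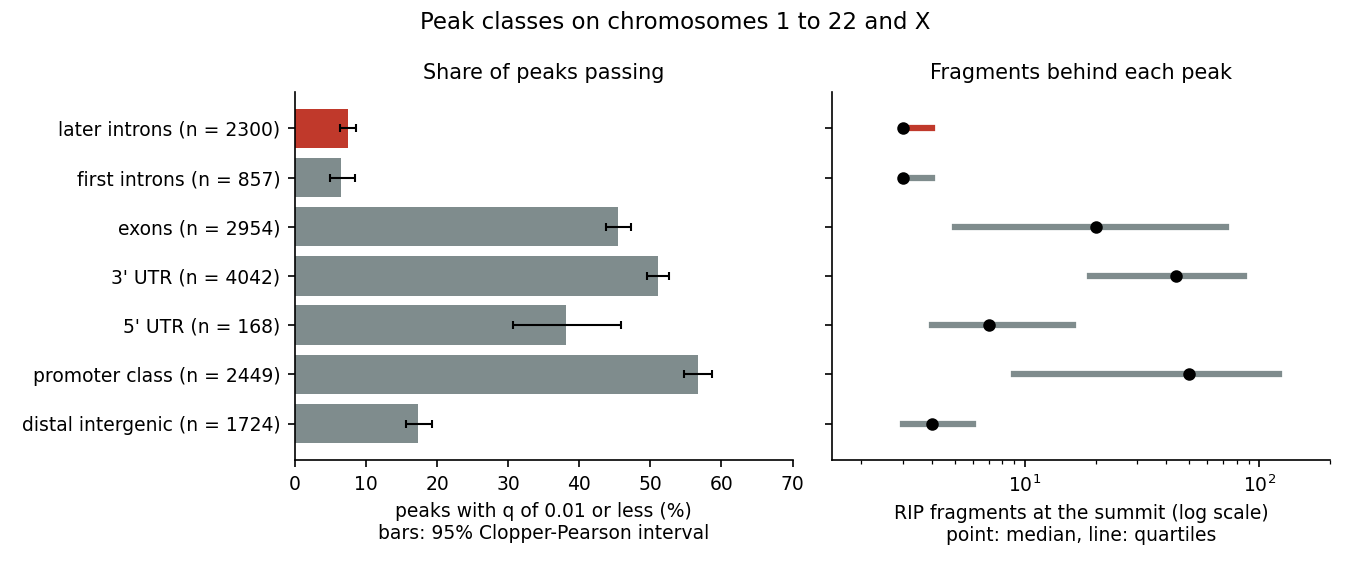
Left, the share of peaks with a q of 0.01 or less in each annotation class (bars, with 95% Clopper-Pearson intervals); right, the RIP fragments at the summit on a log axis (points, medians; lines, quartiles). Later introns stand at 7.43% with a median of 3 fragments, close to first introns (6.53%, 3 fragments) and far below exons (45.5%, 20 fragments).

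Only 1 later intron peak overlapped sequence held in the tables used here, and it is shown as an example of the weak majority. It lay in intron 9 of 17 of EXOC4, which encodes a subunit of the exocyst complex, and had 4 fragments and a fold of 2.98, with its −log10 q at 0.59. The first 227 bases of this peak, at chr7:133484325-133484551 (GRCh38.p14, forward strand, RefSeq), fall in the promoter window of a nested gene, LOC124901748.

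EXOC4 intron 9: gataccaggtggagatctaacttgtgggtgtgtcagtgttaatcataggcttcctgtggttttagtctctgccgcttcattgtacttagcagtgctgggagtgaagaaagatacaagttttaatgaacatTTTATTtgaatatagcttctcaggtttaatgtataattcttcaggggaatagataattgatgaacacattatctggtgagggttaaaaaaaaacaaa

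The capitals mark the only match to the poly(A) signal AATAAA, which lies on the reverse strand, and the stretch is 36.1% G and C. GGACT, a common form of the m6A motif, matched neither strand. Of the 35116 RefSeq promoter windows cut to this length, 35.0% hold GGACT on either strand and 15.2% hold AATAAA. These windows were not matched to the stretch in base composition, so their shares are no background for intron sequence.

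The 171 peaks that passed had a median of 21 fragments and a median fold of 3.81, with a range of 1.47 to 18.97. Of these, 89 rested on 20 or more fragments and 54 on 10 or fewer. They lay in 161 genes. At the edge of the threshold, FARP2 (−log10 q of 2.0047, 17 fragments, fold 2.80) was the last inside. A peak in CCDC30 and one in SPATS2L, both with 7 fragments over a background of 1.07 and a −log10 q of 1.9995, were the first outside. Of the 2300 peaks, 26 had 20 or more fragments and did not pass.

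Pseudogenes lay under a large share of the peaks that passed. The summit of 57 of the 171 (33.3%, interval 26.3 to 40.9) fell inside a gene, other than the host, that RefSeq lists as a pseudogene. Of the 2129 peaks that did not pass, 55 did so (2.58%, interval 1.95 to 3.35). Hosts were left out of this count, as were transcribed pseudogenes, a separate RefSeq type that hosted 13 of the passing peaks. Among those that passed with 20 or more fragments, 44 of 89 (49.4%) had a summit in a pseudogene, and among those with fewer fragments 13 of 82 (15.9%). This was not limited to later introns. First intron peaks that passed had a share of 39.3% (22 of 56) and distal intergenic peaks that passed one of 32.1% (96 of 299). The later intron peaks in pseudogenes had more fragments (median 41, range 7 to 275) than the other 114 that passed (median 13, range 6 to 274). They also had more background (median 12.2 against 2.04 fragments) and a lower median fold (3.15 against 4.17). The sources used here do not say how reads that map equally well to a pseudogene and its source gene were placed, so the origin of these fragments is uncertain.

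**Figure D2:**
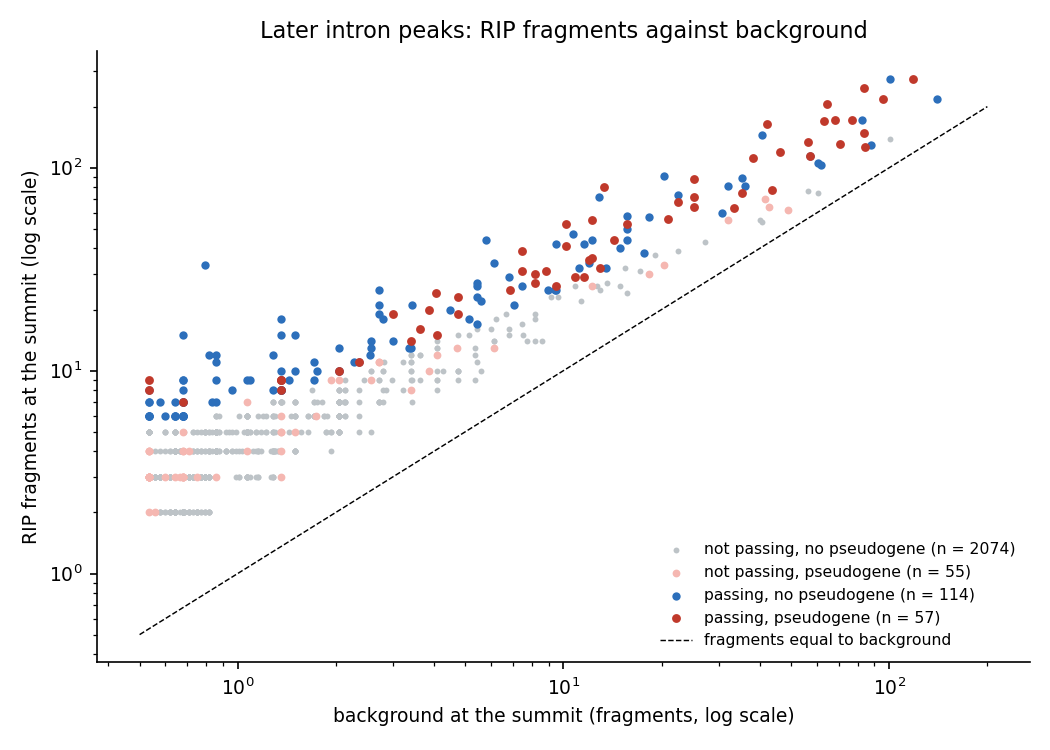
Each point is 1 of the 2300 later intron peaks, with the background at its summit on the x axis and its RIP fragments on the y axis (both log scales). Colours give whether the peak passed a q of 0.01 and whether its summit lies in a pseudogene other than the host. The dashed line marks equality. The 57 red points (passing, in a pseudogene) reach from 7 to 275 fragments and make up 44 of the 89 passing peaks with 20 or more.

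Copies of cytosolic ribosomal protein genes were the largest group. Of the 57 pseudogenes, 53 carried the symbol of a protein-coding gene followed by P and a number, and 20 of these were named for 16 ribosomal proteins. Their peaks had a median of 103.5 fragments (range 14 to 275) and a median fold of 3.05. They took 7 of the 12 leading places among all later intron peaks by −log10 q. The share of ribosomal protein copies among all RefSeq pseudogenes was not computed, nor that under peaks that did not pass. Whether 20 of 57 is a high share was not tested.

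The leading peak lay in intron 2 of 7 of TSPAN9, a tetraspanin (chr12:3211371-3211746, hg38), over RPS27P3. It had 247 fragments (exact 95% Poisson interval 217 to 280) over a background of 83.6, a fold of 2.93 (2.58 to 3.32 with the background held fixed), and its −log10 q reached 41.7. In intron 4 of 43 of ANK2, an ankyrin that links membrane proteins to spectrin, the peak over RPS26P25 had 164 fragments and a fold of 3.82. These counting intervals cover the RIP fragments of the combined libraries and no spread between cultures. A second RPS27 copy, RPS27P8, lay in intron 14 of 24 of PPP1R12B, a regulatory subunit of myosin phosphatase, with only 80 fragments but a higher fold of 5.67 over a background of 13.3.

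A further 3 of these leading peaks had folds below that of the TSPAN9 peak. RPL36AP37 in intron 3 of 26 of PLEKHA7, an adherens junction protein, had the most fragments of any later intron peak, 275 over a background of 118, and a fold of 2.31. RPL17P39 in THSD4, a matrix protein, had 170 fragments and a fold of 2.66. RPS2P5 in the kinase gene TAOK3 had 217 fragments and a fold of 2.25.

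The genes that the pseudogenes are named for were then looked up in the same list. The 53 pseudogenes pointed to 46 source genes, of which 31 had a peak of their own that passed, 4 had only peaks that did not, and 11 had none. Of the 16 ribosomal proteins among them, 10 had a peak that passed and 6 had none. RPS27 and RPS26, whose copies lay under the leading peaks in TSPAN9, ANK2 and PPP1R12B, were among those with none, as were RPS10, RPS28 and RPL21. Genes absent from the list have no value in it, so the level of these mRNAs is unknown here. Peaks of every class were counted for the source genes. The same share over all protein-coding genes was not computed, so the counts of source genes cannot be read as high or low.

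The best peaks of the source genes were mostly promoter-class peaks, a class set by distance to a transcription start, or 3' UTR peaks. Where the source gene also passed, its peak was usually the deeper. In 26 of these 35 pairs the source had more fragments, and in 14 it had the higher fold. The pairs include DTX2P1 and SMURF2P1, whose hosts DTX2P1-UPK3BP1-PMS2P11 and SMURF2P1-LRRC37BP1 carry the same symbol. These pseudogenes may be part of the host rather than a copy nested in it. RPL41, the source of RPL41P5 in LOC643339, had 184 fragments and a fold of 7.95, against 39 fragments and 4.72 in the copy. For HSPA8, a constitutive chaperone, the gene had 214 fragments and a fold of 3.24 and the copy HSPA8P8 88 fragments and 3.40. RPL17 lay between its 3 copies. The gene had 115 fragments and a fold of 2.20, its copies RPL17P39 and RPL17P6 had 170 and 172 fragments, and RPL17P7 in WDR47 had 78 fragments and a fold of 1.77. HMGN2, a nucleosome-binding protein, had a fold of 1.48 over 135 fragments, and its copy HMGN2P4 in SV2C had a fold of 4.82 over 53.

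Most of the other pseudogenes were named for genes that do not encode ribosomal proteins. They included the 14-3-3 copies YWHAQP2 (72 fragments, fold 2.79) and YWHAZP5 (24 fragments, 4.93). The ferritin copy FTH1P20 had 114 fragments and a fold of 1.98, and the thymosin copy TMSB4XP8 64 fragments and 2.49. KRT8P3, a keratin copy inside ASPH, had 63 fragments and 1.87.

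**Figure D3:**
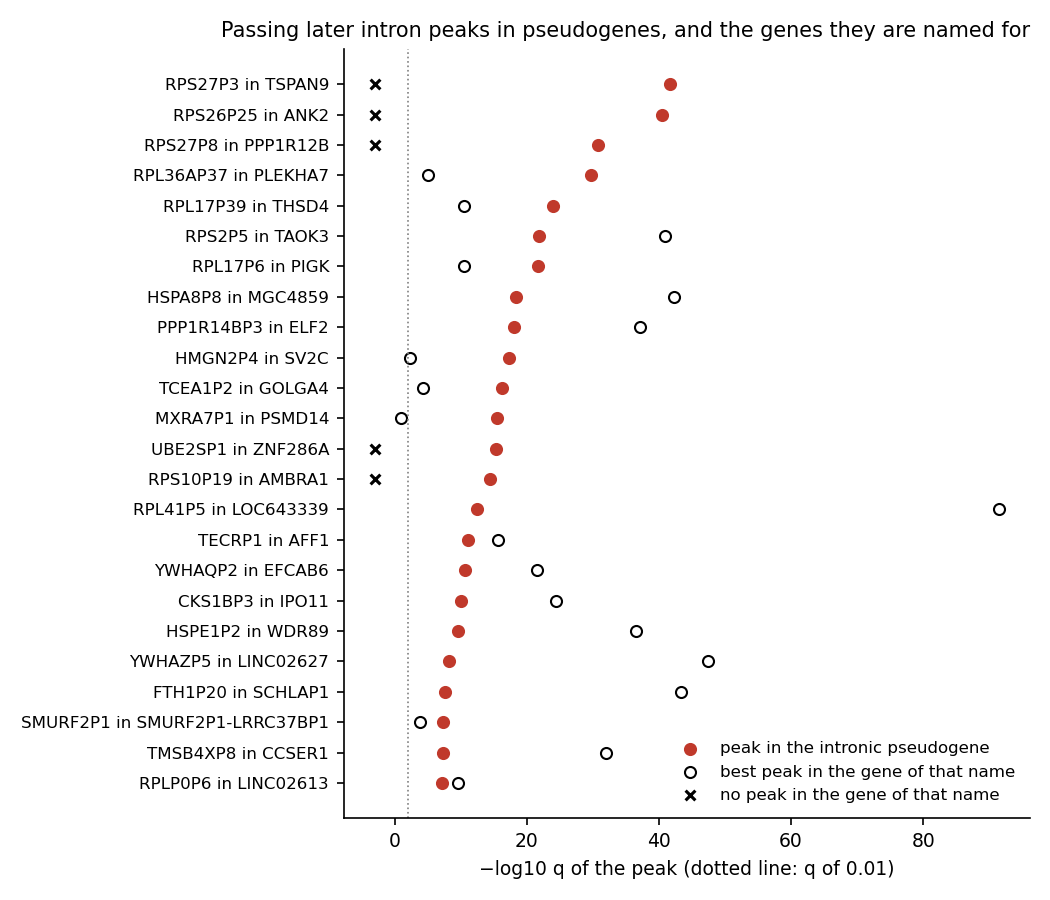
Among the strongest later intron peaks, 24 over pseudogenes that carry a coding gene's symbol (red points, labelled by pseudogene and host gene), with the best peak of the gene each is named for (open circles) on a −log10 q axis; crosses mark source genes without a peak and are placed left of 0 only for display. RPS27, RPS26, UBE2S and RPS10 have no peak, while RPL41, HSPA8, YWHAZ and FTH1 stand above their copies.

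The other 114 peaks that passed had no pseudogene at the summit, with hosts and transcribed pseudogenes again left out of the count. For 14 of them the summit fell in some other gene, and for 100 in none but the host. In 13 of them another part of the peak touched a pseudogene, which makes 70 of 171 peaks with any base in one. HFM1, a helicase of meiotic recombination, led this group with 274 fragments over a background of 101 (chr1:91387038-91387381) and a fold of 2.71. IL6ST, the shared signalling receptor of the interleukin-6 family, had 145 fragments in intron 14 of 15 and a fold of 3.49. DOCK9, an activator of CDC42, had 91 fragments in intron 46 of 55 and a fold of 4.30.

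The highest fold of all later intron peaks, 18.97, was that of GRIP1, a scaffold protein of glutamate receptors (chr12:66451084-66451429, intron 10 of 22). It rested on 33 fragments over a background of 0.792 (fold 13.2 to 26.4 over the counting interval). GRIP1 had 2 more later intron peaks, with 8 fragments in intron 12 and 23 in intron 7, and both passed. The next highest folds came from 12 to 44 fragments. CLTRN, a renal amino acid transport protein, had a fold of 9.52 over 15 fragments (interval 5.59 to 15.3). PDE1A, a phosphodiesterase, had 8.05 over 18 fragments, and DZIP1L, a ciliary protein, 7.17 over 12 in a peak that touches a pseudogene outside its summit. PCED1B stood at 7.002 over 12 fragments and the non-coding LINC02227 at 6.99 over 25. MDN1, an ATPase of ribosome assembly, had a fold of 6.78 over 15 fragments and FAM53A 6.64 over 44. Background was 0.680 fragments for CLTRN, 0.814 for DZIP1L and 0.857 for PCED1B, near the lowest of the list (0.533). It was 1.36 for PDE1A and MDN1, 2.72 for LINC02227 and 5.78 for FAM53A. Each counting interval holds the background fixed. The counting intervals of these 7 overlap one another, and that of CLTRN also overlaps the interval of GRIP1, so their order is not settled.

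Few genes held several peaks that passed. There were 7 with at least 2, among them ASPH, SV2C and GRIP1 with 3 each and LINC01492, PTGR1 and NUTM2A-AS1 with 2 each. The SV2C peaks of 53 and 56 fragments had their summits in pseudogenes, HMGN2P4 and RAP1BL. In ASPH, an aspartate beta-hydroxylase, the 5 later intron peaks had 14, 39, 63, 72 and 103 fragments, and the peak of 72 fragments had the highest fold (5.27). That peak has its summit outside KRT8P3 but overlaps the pseudogene, and it lay within 1 kb of the peak over it. Both passing peaks of PTGR1, a prostaglandin reductase, were deep and low, with 217 fragments at a fold of 1.55 and 129 at 1.47. MET, the hepatocyte growth factor receptor, had 106 fragments and a fold of 1.74 in intron 12 of 20, and a second peak of 24 fragments that did not pass.

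By gene, the 2300 peaks fell in 1447 hosts, of which 1000 had 1 peak and 50 had 5 or more. The genes with the most peaks were long and their peaks were shallow. PRKCA, protein kinase C alpha, had 19 later intron peaks over a span of 508 kb, 11 of them in intron 2, with 2 to 6 fragments each. PLCB1, a phospholipase C, had 18 with 2 to 8 fragments, SMYD3, a methyltransferase, 15 with 2 to 6, and ASAP1, an ARF GTPase-activating protein, 12 with 2 to 5. None of these 64 peaks passed. LINC00536 and FNDC3B had 9 each, none of which passed, and of the 8 in MIR4435-2HG 1 did. SND1, a nuclease of RNA silencing complexes, had 8 without a pass.

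The exons of several of these genes had far deeper peaks. In PRKCA all 4 exon or UTR peaks passed, the deepest with 159 fragments. The deepest exon or UTR peaks of ASAP1, FNDC3B and PLCB1 had 174, 129 and 73 fragments, and SMYD3 and LINC00536 had none. Of peaks in genes with 5 or more, 2.64% (9 of 341) passed, and of peaks in genes with 1, 10% (100 of 1000). The median host span was 305 kb in the first set and 105 kb in the second.

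**Figure D4:**
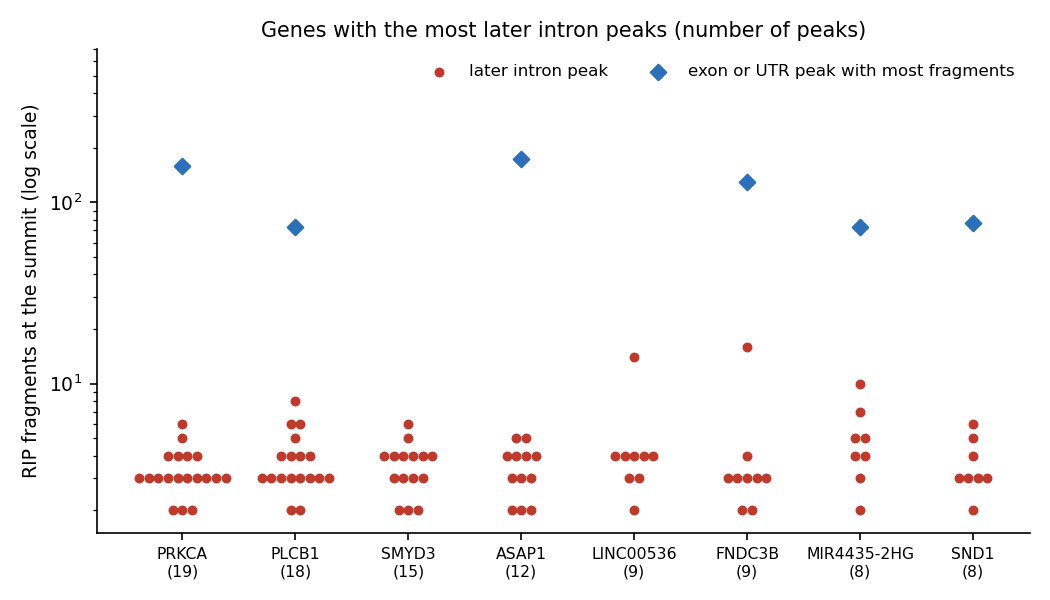
RIP fragments at the summit (log axis) of every later intron peak (red points) in the 8 genes with the most of them, with the exon or UTR peak of most fragments in the same gene (blue diamonds) where there is one; numbers in brackets are counts of later intron peaks. The intron peaks of PRKCA, PLCB1, SMYD3 and ASAP1 all have 8 fragments or fewer, while the diamonds run from 73 to 174.

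Exon peaks were looked up in the same hosts, with promoter-class peaks not counted. Of the 1447 hosts, 379 (26.2%, interval 23.9 to 28.5) also had an exon or UTR peak that passed, and of the 613 genes with a first intron peak 215 (35.1%, interval 31.3 to 39.0) did. Of the hosts of a passing later intron peak 39 of 161 (24.2%, interval 17.8 to 31.6) did. Of hosts whose passing peak lay in a pseudogene 12 of 56 (21.4%, interval 11.6 to 34.4) did. Over all protein-coding genes of chromosomes 1 to 22 and X the share was 14.2% (2845 of 19970), which the last interval includes. The hosts also include non-coding genes, gene length was not allowed for, and no difference was tested. Of the 171 passing peaks, 3 lay within 1 kb of an exon, UTR or promoter-class peak, as did 21 of all 2300 later intron peaks. Within 1 kb of any other peak lay 18 of the 171 and 194 of the 2300.

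The median intron number was 4 and the highest 99, and the median fragments were 3 in every range of intron numbers. The share that passed was 8.74% in intron 2, 8.56% in intron 3, 5.68% in introns 4 and 5, 6.10% in introns 6 to 10 and 8.18% from intron 11 on, with overlapping intervals. Last introns held 306 of the peaks (13.3%), and 35 of them passed (11.4%, interval 8.10 to 15.5). In later introns that were not the last, 135 of 1993 passed (6.77%, interval 5.71 to 7.97). The difference was not tested.

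By host type, 2015 peaks lay in protein-coding genes, 231 in long non-coding RNA genes and 53 in transcribed pseudogenes. The share that passed was 6.55% (interval 5.51 to 7.72) in the first and 11.3% (7.49 to 16.1) in the second, with overlapping intervals. It was 24.5% (13 of 53, interval 13.8 to 38.3) in the third. Several of the latter, and protein-coding hosts such as RGPD6, NBPF26 and PDE4DIP, have near-identical copies in the genome, so the placement of their fragments is uncertain.

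Gene lists were read against all protein-coding genes of these chromosomes, of which 6.42% (1282 of 19970) had a later intron peak and 14.2% an exon or UTR peak that passed. Of the 1447 hosts, 11.1% had a later intron peak that passed. These shares do not allow for gene length, and no list was tested. Of 38 genes of splicing and RNA processing known for introns that are held in the nucleus, 1 had a later intron peak. It was OGT, the O-GlcNAc transferase, with 15 fragments, a fold of 2.05 and no pass. A first intron peak was found in 3 of the 38, and an exon or UTR peak that passed in 18. Of 21 genes of pre-mRNA 3' end formation, CSTF3, WDR33 and CDK13 had peaks, with best values of 3, 3 and 4 fragments. Of 32 snoRNA host genes, 1 had a later intron peak, SNHG14, with 5 fragments. Counts this small are not read as high or low beside the share over all genes.

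The list of 40 long genes was chosen with earlier results of these data known. Its counts can therefore not be read against the shares over all genes. Among these 40 genes, 26 had a later intron peak, and 4 had one that passed. Beside ASPH these were NBEA (7 fragments, fold 5.22), the adhesion protein LPP (6 fragments, 4.26) and the tight junction protein TJP1 (8 fragments, 3.81, over HMGN2P5). Of 36 adhesion and cytoskeleton genes 5 had a peak and none passed, the nearest being CAV1, caveolin 1, with 18 fragments, a fold of 2.64 and its −log10 q at 1.80.

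YTHDF2 itself and CRTC2, a CREB coactivator, had no later intron peak. Of 23 m6A writers, erasers and readers, IGF2BP3 (5 fragments, fold 3.23), YTHDF3 (4 fragments, 2.98) and the demethylase FTO (3 fragments, 2.61) had peaks, none of which passed, while 14 of the 23 had an exon or UTR peak that did. Of 35 genes of deadenylation, decapping and decay, CNOT4, SMG6 and CNOT2 had peaks of 3, 3 and 6 fragments. Of 18 genes of the CREB, CRTC and SIK axis, ATF1, SIK3 and PPP3R1 had peaks of 3 fragments and CREB1 one of 2. None of 18 hepatocyte markers and none of 17 markers of other cell types had a later intron peak or a passing exon or UTR peak. Promoter-class peaks were not counted for these markers, and the labelled cell type was not checked here.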

How the data were processed

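The labels describe 2 YTHDF2 RIP and 2 input libraries of HCCLM3 cells, prepared from total RNA with a stranded low-input kit, per the labels' protocols. HISAT2, MACS2 and hg38 are named in the submitters' processing notes. The sources used here give no versions or options, and do not say how libraries were combined or multi-mapping reads treated. Columns of the deposited list are, per the file headers, a fold enrichment (a ratio of RIP to background), −log10 p and −log10 q for each peak, all the authors' values. The deposited score was not used. Whether replicates came from separate cultures is not stated.

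Fragments k and background b at each summit were solved from fold = (k + 1) / (b + 1) and the Poisson p of more than k. All peaks were met within 0.000189 in −log10 p. Of 2000 peaks simulated with these same formulas, 100% were recovered, which checks the solving step and not the formulas. The host is the gene named in the intron annotation (the deposited nearest gene for 55.8% of peaks). Gene spans and types came from the RefSeq table of GRCh38.p14, which held the summit inside the host for 99.5% of peaks. It gives no strand. Source genes of pseudogenes were read from symbols. Exon peaks were given to their annotated gene and UTR peaks to every gene over the summit.

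Members and lists were chosen with earlier results of these data known. Named genes were YTHDF2, CRTC2, hosts of the 12 leading peaks by −log10 q, of the 8 highest passing folds, the 8 with most peaks, and up to 4 per list by −log10 q. The split by pseudogene type, the source genes, and hosts with several passing peaks, MET and host families with copies were added after values were seen. Some items that these rules name are not reported here. Intervals are exact 95%, for counting error only. Alternatives covered q thresholds, contigs, width, intron number, overlap and gene assignment. Python 3.11.15, pandas 2.3.3 and scipy 1.17.1 were used.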

Additional observations from a re-analysis of the deposited data

How the results depend on the processing

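No paired analysis was possible because the list holds no value per library, and for the same reason no replicate could be left out. The share of later intron peaks that passed was 11.8% at a q of 0.05, 3.39% at a −log10 q of 5 or more and 16.7% among peaks wider than the minimum. It was 5.21% without peaks in pseudogenes, a setting chosen after seeing the data. Among passing peaks the median fold was 3.81 and the median number of fragments 21, and among all later intron peaks of 10 or more fragments the median fold was 2.73. The last intron held 20.5% of passing peaks and 8.17% of peaks in transcripts of 5 or more introns. The summit lay in another gene for 14.3% of all and 41.5% of passing peaks, and 161 genes had a passing peak. Hosts with an exon or UTR peak made up 31.7% at a q of 0.05 and 19.8% with the deposited gene. The pseudogene share of passing peaks was 40.9% by any base of the peak, 42.7% within 1 kb, 23.9% at a q of 0.05 and 46.2% at a −log10 q of 5 or more, settings chosen after seeing the data. The other 12 values, among them those over all contigs and from intron 3 on, stayed within the main interval or within 1.5 times. The cause of these shifts was not tested. Counting error is large for most later intron peaks, since 76.3% of them rest on 4 or fewer fragments.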
